A study of Mus musculus with 4 samples.

Results

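Lck, Fyn, Zap70, Lat, Lcp2, Ptprc, Ptpn22, Ptpn6 and Cd5 encode proteins that start or restrain the signal of the T cell receptor at the membrane. They were taken by symbol, and all 9 were found once each among the 27998 genes of the counts. Their levels were read in CD8+ T cells that bound the H-2Db tetramer carrying the GP33 peptide of the glycoprotein of lymphocytic choriomeningitis virus (LCMV). The mice were mixed bone marrow chimeras on the C57BL/6 background, made by putting WT (CD45.1) and Bcl3-/- (CD45.2) marrow into the same sub-lethally irradiated Rag1-/- host, and spleens were taken on day 8 after infection with LCMV Armstrong. The Bcl3 protein is a nuclear partner of NF-kB subunits. Each of 2 chimeras gave 1 WT and 1 Bcl3-/- library, called WT1 and KO1 (chimera 1) and WT2 and KO2 (chimera 2), so that n = 2 libraries per genotype. The deletion is in the germline and is carried by every cell that came from the Bcl3-/- marrow, whereas the infection, the host and its lack of Rag1 are common to both genotypes.

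A T cell reads antigen through a receptor that has no enzyme of its own. The Src family kinases Lck and Fyn phosphorylate the CD3 and zeta chains, Zap70 binds there and phosphorylates the adaptors LAT and SLP-76 (encoded by Lcp2), and these gather the enzymes that lead to calcium, NFAT, NF-kB and AP-1. CD45 (Ptprc) removes the inhibitory phosphate from Lck, while the phosphatases encoded by Ptpn22 and Ptpn6 (SHP-1) and the surface protein CD5 damp the signal.

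Of 14 windows that the RefSeq table (GRCm38.p6) gives for the 9 genes, 3 are shown to let the letters before the start sites of a Src family kinase, a Syk family kinase and a phosphatase be read beside the levels below. Each is the 250 bases before a start, on the strand of its gene. None overlaps an exon of GENCODE vM21. Capitals mark TGTGGT (or its reverse complement), the core that RUNX factors bind, in Lck and Ptpn22, and CCGGAA, an ETS core, in Zap70.

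Lck, minus strand, chr4:129573642-129573891: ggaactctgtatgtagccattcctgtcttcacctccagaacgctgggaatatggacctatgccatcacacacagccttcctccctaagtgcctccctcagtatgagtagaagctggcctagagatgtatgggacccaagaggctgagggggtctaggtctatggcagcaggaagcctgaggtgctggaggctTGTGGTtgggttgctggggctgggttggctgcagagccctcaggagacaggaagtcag

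Zap70, plus strand, chr1:36761548-36761797: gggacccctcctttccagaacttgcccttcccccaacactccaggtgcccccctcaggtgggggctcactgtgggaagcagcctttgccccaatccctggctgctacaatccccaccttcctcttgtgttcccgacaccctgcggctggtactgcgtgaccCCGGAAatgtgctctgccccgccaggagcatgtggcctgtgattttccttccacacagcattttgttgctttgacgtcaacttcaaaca

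Ptpn22, plus strand, chr3:103860027-103860276: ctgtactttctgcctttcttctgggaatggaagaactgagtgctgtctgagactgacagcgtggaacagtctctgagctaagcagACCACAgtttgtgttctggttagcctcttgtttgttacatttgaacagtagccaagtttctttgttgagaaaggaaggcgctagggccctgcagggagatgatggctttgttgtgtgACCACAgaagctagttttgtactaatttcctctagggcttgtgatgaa

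On either strand, TGTGGT was present in 3 of the 14 windows of these genes and in 14% of 32851 promoters of the same length, and CCGGAA in 1 of 14 and in 12%. Since Bcl3 works through NF-kB subunits, a site of that family was also looked for, at first by a loose pattern (GGG, then 5 bases of any kind, then CC). It was found in 8 of 14 windows, but also in 45.8% of all promoters. The stricter kappaB consensus, which was tried after that share had been seen and whose matches all fall within the first pattern, was found in 0 of 14 windows and in 7.25% of all promoters. A match describes letters, and no binding was measured here.

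After filtering, 24893 cells were left, of which WT1 gave 4941, WT2 8092, KO1 5366 and KO2 6494. The median number of UMIs (unique molecular identifiers, 1 per captured transcript end) per cell was 3571 (WT1), 2019 (WT2), 3620.5 (KO1) and 2948 (KO2), so WT2 was the shallowest library per cell. The libraries shared between 37 and 63 cell barcodes per pair, against 36 to 71.3 for barcodes drawn at random. The cells carried the transcripts of the labelled type. Cd8b1 stood at 1955, 1696, 2085 and 1963 CPM (UMIs scaled to a common library total, with the TMM factors of edgeR) in WT1, WT2, KO1 and KO2, and Cd4 at 2.74, 2.62, 2.54 and 1.66. The deleted gene itself did not separate the genotypes. Bcl3 was at 34.0 CPM in WT1 and 28.4 in KO1, and at 106.3 in WT2 and 83.4 in KO2. Its log2 fold change, KO over WT, was -0.33 (edgeR, adjusted p = 0.837), and -0.31 with chimera as a block (edgeR, adjusted p = 0.0201). These are tags at the end of the transcript, and which part of Bcl3 was deleted was not given in the sources used here, so they do not check the labels. WT and KO below are therefore the genotypes as labelled.

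Clusters were made within each library and sorted by fixed marker lists into 5 T cell states that held 23341 cells. The Tcf7/Ccr7 clusters, led by genes of memory precursor or naive cells, held 315 (WT1), 437 (WT2), 132 (KO1) and 203 (KO2) cells. In KO1, Cd4 was among the 10 leading genes of this cluster. The terminal effector-like clusters (Zeb2, Cx3cr1, S1pr5) held 459, 1109, 1169 and 1093 cells in the same order. Cycling clusters held 808, 1050, 526 and 692 cells, and clusters led by interferon-stimulated genes held 258, 444, 468 and 516. The remaining T cell clusters took no name and held 2785, 4676, 2651 and 3550 cells. They are used as the reference for the other states. In KO1 this reference includes a cluster of 724 cells with Tcf7, Il7r, Ltb, Bcl2 and Slamf6, 5 genes of the Tcf7/Ccr7 list, among its 10 leading genes. In WT1 it includes a cluster of 672 cells with 2 genes of that list, Il7r and Bcl2, among its 10 leading genes. The sizes of the states moved with the settings. With markers at 1.5-fold the Tcf7/Ccr7 class of KO1 held 856 cells, and at a resolution of 0.4 the terminal effector-like class of WT1 held 1958. Between 105 and 134 cells per library were B-like. Only Ptpn6 was among the 2000 variable genes from which each library was clustered.

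Transcripts of all 9 genes were found in every library and state. With each cell thinned to 1000 UMIs, Lck was detected in 71.8% ± 3.46 (SD, n = 4 libraries) of the cells of the 5 states. Lat was detected in 53.3% ± 1.89 and Ptprc in 45.6% ± 4.35 of them. Ptpn22 (22.9% ± 0.596), Zap70 (21.9% ± 0.751), Fyn (21.2% ± 1.40) and Ptpn6 (21.1% ± 1.31) were found in similar shares. Cd5 was found in 12.3% ± 0.230 and Lcp2 in 8.28% ± 1.40. Without thinning the shares were higher, from 25.1% for Lcp2 to 95.6% for Lck. In thinned cells, a median of 3 of the 9 genes was detected per cell in each library.

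B cells do not use Lck, Zap70 or Lat as their main receptor components. Lck was detected in 18.1% to 23.9% of B-like cells, Lat in 11.6% to 15.2% and Zap70 in 3.15% to 6.72%, at 1000 UMIs per cell. Median depths before thinning were 2297, 2025.5, 2901 and 2637 UMIs in B-like cells and 3557, 1999, 3611.5 and 2929 in the T cell states (WT1, WT2, KO1 and KO2). Free RNA was read from the barcodes with at most 50 UMIs, which held 2.63 to 4.16 UMIs each on average. Lck made up 1146 (WT1), 1129 (WT2), 1293 (KO1) and 1365 (KO2) CPM of it, without TMM scaling, above the 277.7, 357.8, 355.1 and 345.4 CPM of the B-like cells. These CPM values are shares of RNA and not amounts per barcode. In WT1 there were 95 Lck UMIs in 105 B-like cells, and 860 in 228382 barcodes of at most 50 UMIs. The Lck, Lat and Zap70 tags of B-like cells are not read as expression. Their source was not tested, and doublets were not looked for. In the T cell states Lcp2 was also under its free RNA, at 88.5, 68.6, 96.9 and 102.6 CPM against 123.9, 86.2, 116.3 and 124.9 (WT1, WT2, KO1 and KO2). Ptpn6 was too, at 223.9, 263.9, 228.6 and 267.9 CPM in the T cell states. Most other genes were under their free RNA in some libraries. Zap70 was so in WT2, KO1 and KO2, and Lat and Ptprc in WT1, KO1 and KO2. Lck was so in KO1 only, Ptpn22 in WT2 only and Cd5 in KO2 only, whereas Fyn was above its free RNA in each library. In WT1, Lcp2 had 1634 UMIs in 4625 cells of the T cell states, and 93 in 228382 barcodes of at most 50 UMIs. Ptpn6 had 4133 and 217 in the same cells and barcodes. Levels in CPM do not tell how many of the tags in T cells were free RNA, and this was not tested. Ptpn6, which B and myeloid cells also use to restrain their receptors, was at 327.4, 424.1, 405.8 and 492.3 CPM in B-like cells, above its 289.1, 305.8, 347.9 and 327.8 CPM in free RNA and above its level in the T cell states, and 12.5% of its UMIs came from outside the 5 states. For Lcp2 and Ptprc, 7.22% and 5.69% of UMIs came from outside, and for the other 6 genes 2.44% to 3.24%. In sums over all cells, fewer cells of a type and less RNA per cell cannot be told apart.

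**Figure D1:**
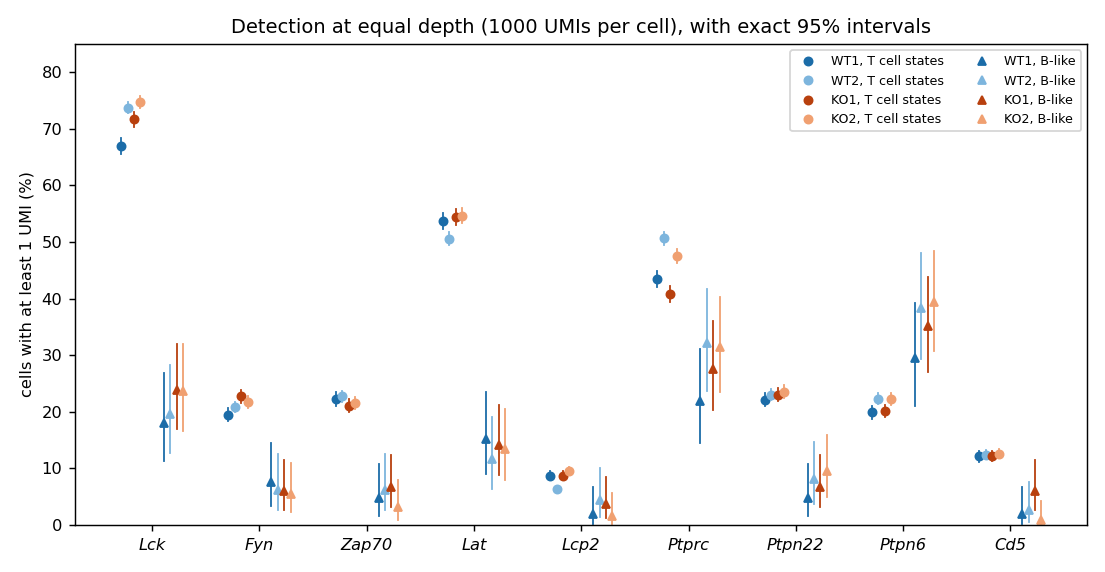
Percentage of cells with at least 1 UMI of each gene after thinning to 1000 UMIs per cell, for the T cell states (circles) and the B-like cells (triangles) of each library, with exact Clopper-Pearson 95% intervals. Of the 9 genes, Ptpn6 was the one detected in a larger share of B-like than of T cell state cells in each library.

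The genotypes were first compared over all cells of a library. None of the 9 genes passed the test between WT and KO in the fit without a block, where 42 of 11566 genes (0.363%) were called by edgeR at an adjusted p of 0.05. At an unadjusted p under 0.05 there were 0 of the 9 and 1808 of all genes, and DESeq2 called 0 of the 9 and 195 genes. With chimera as a block, which compares WT and KO cells of the same animal, 1116 genes (9.65%) were called. Of the 9, 1 (11.1%) was called, Lcp2, which is near the share over all genes. Myeloid transcripts moved with the genotype in these sums. The 15 genes of the myeloid list, none of them at 0, summed to 3330 CPM (WT1), 3115 (WT2), 4408 (KO1) and 4834 (KO2), without TMM scaling, with Lyz2 the most abundant in the WT and S100a8 in the KO libraries. In the T cell states alone, without the myeloid-like clusters, edgeR called 0 of the 9 and 30 of 11092 genes without the block. With the block it called 1 of the 9, Lcp2, and 1306 genes (11.8%), so that 1 of 9 is again near the share over all genes. In the fit without the block, the log2 fold changes of the 9 ran from -0.16 to 0.33, against -0.16 to 0.30 over all cells.

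Lcp2 encodes SLP-76, the scaffold that holds phospholipase C and its partners near LAT, and lies at chr11:34046920-34092295 on the plus strand (GRCm38). It was at 89.4 CPM (WT1), 67.6 (WT2), 97.6 (KO1) and 94.98 (KO2). Both KO libraries were higher than both WT libraries, and WT2 stood lowest. The log2 fold change was 0.30 ± 0.13 (SE, edgeR, adjusted p = 0.343), with a 95% interval from -0.02 to 0.61. With the block it was 0.31 ± 0.08 (edgeR, adjusted p = 0.0340). In the T cell states alone, with the block, it was 0.34 ± 0.09 (edgeR, adjusted p = 0.00748), where 11.8% of 11092 genes were called. The difference was 0.13 in chimera 1 and 0.49 in chimera 2, and without WT2 it fell to 0.10 in the fit without a block (edgeR, adjusted p = 0.821). Without WT1 it was 0.51 (edgeR, adjusted p = 0.0558). In thinned cells of the T cell states, Lcp2 was detected in 8.66% of WT1, 6.26% of WT2, 8.70% of KO1 and 9.50% of KO2 cells, with WT2 again the lowest. Thinning left out 223 cells of WT2, the shallowest library, against 15 to 25 of the others. With equal numbers of cells per library, each thinned to 1000 UMIs, the log2 fold change over all cells was 0.27 (edgeR, adjusted p = 0.543), against 0.30 with all UMIs.

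The kinases passed the test in neither fit. Lck, at 1105 and 1259 CPM in WT1 and WT2 and 1173 and 1236 in KO1 and KO2, had a log2 fold change of 0.03 (95% interval -0.25 to 0.31). The KO values fell between the WT values. Fyn was at 214.3, 209.2, 240.9 and 217.2 CPM in WT1, WT2, KO1 and KO2, a log2 fold change of 0.12 (-0.11 to 0.34). This value was 0.032 without KO1, 0.090 without WT2, 0.131 without WT1 and 0.193 without KO2. Zap70 was at 243.5, 242.8, 234.2 and 218.3 CPM, a log2 fold change of -0.10 (-0.32 to 0.11). Its value was -0.160 without KO1, -0.112 without WT2, -0.101 without WT1 and -0.047 without KO2. For Fyn both KO libraries were above both WT libraries and for Zap70 below, but neither passed the test (edgeR, adjusted p = 0.605 and 0.641).

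Lat, the membrane adaptor on which Zap70 acts, was at 730.8 CPM (WT1), 670.0 (WT2), 792.3 (KO1) and 706.9 (KO2), with overlapping genotypes and a log2 fold change of 0.10 (-0.17 to 0.37). That of Lat was 0.009 without KO1, 0.030 without WT2, 0.162 without WT1 and 0.185 without KO2. Ptprc, whose product sets the activity of Lck, was at 536.8 CPM (WT1), 661.6 (WT2), 494.7 (KO1) and 577.2 (KO2), so that KO was lower in each chimera although the genotypes overlapped. Its log2 fold change was -0.16 (-0.48 to 0.16; edgeR, adjusted p = 0.620, and 0.181 with the block), and it was -0.01 without WT2, -0.06 without KO1, -0.30 without WT1 and -0.27 without KO2. WT cells carry the CD45.1 allele of Ptprc and Bcl3-/- cells the CD45.2 allele, so that an effect of genotype and one of the allele cannot be told apart for this gene.

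Ptpn22 was at 245.6, 237.3, 240.0 and 243.9 CPM in WT1, WT2, KO1 and KO2, with a log2 fold change of 0.01 (-0.20 to 0.21). Ptpn6, the gene of SHP-1, was at 236.9, 270.7, 246.0 and 267.1 CPM (0.02, interval -0.23 to 0.26). Its exons share sequence space with Gm20531 on the opposite strand, which was at 0.254 to 1.03 CPM. Cd5 was at 122.1, 123.0, 125.7 and 121.0 CPM (0.01, interval -0.19 to 0.21). For these 3 genes the genotypes overlapped, and differences within the intervals were not detectable here.

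**Figure D2:**
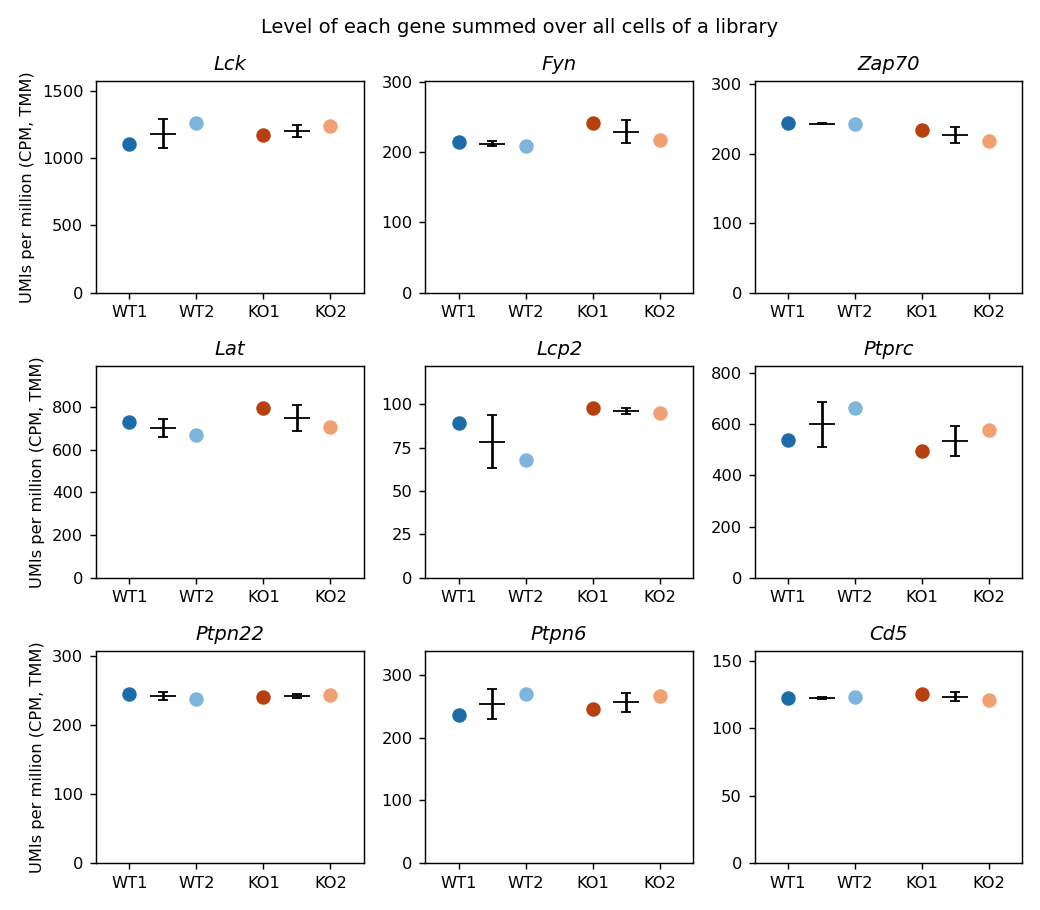
CPM of each gene summed over all cells, by library (points), with the mean and SD of each genotype (bars, n = 2). The y axes start at 0 and differ between genes; the clearest gap between genotypes is that of Lcp2, with WT2 lowest at 67.6 CPM.

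**Figure D3:**
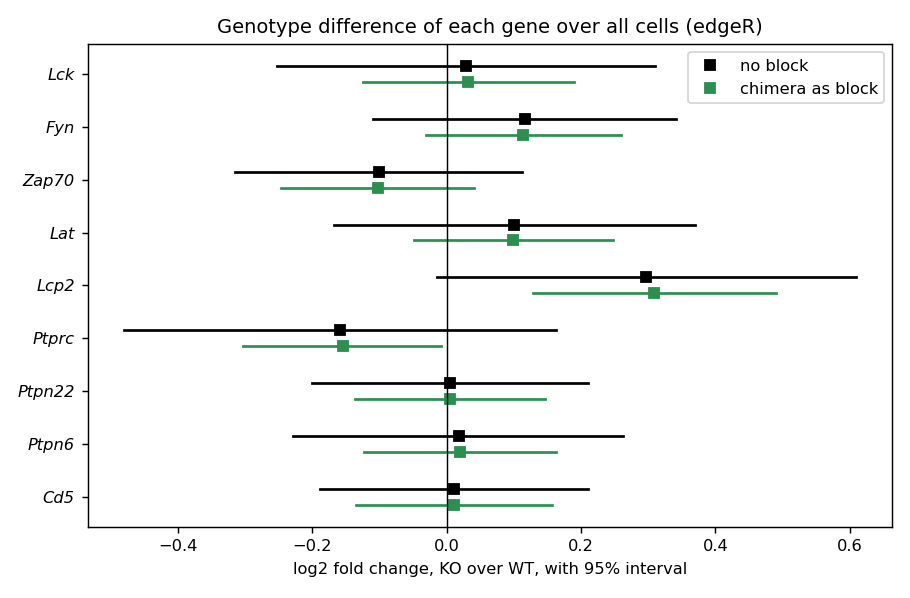
Log2 fold change of each gene, KO over WT, over all cells, with 95% intervals, from the edgeR fit without a block (black) and with chimera as a block (green). The blocked interval of Lcp2 lies above 0 and that of Ptprc below it, but only Lcp2 passed after adjustment over all genes.

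The levels were then compared across states. Clusters were drawn from the same cells, so these differences are descriptions without a test, given as log2 differences of CPM + 1 from the unnamed T cell clusters of the same library (mean ± SD, n = 4 libraries). Beside each count stands the share of 6787 genes (mean of at least 10 CPM) with the same sign in 4 of 4 libraries.

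In cycling cells, all 9 genes were lower than in the unnamed clusters in 4 of 4 libraries, where 40.3% of genes were lower and 25.1% higher. Lck stood at 896.9, 1017, 903.2 and 1053 CPM in WT1, WT2, KO1 and KO2, against 1296, 1455, 1297 and 1382 in the unnamed clusters. Every cycling value was under every unnamed one, a log2 difference of -0.49 ± 0.07. Fyn followed at -0.43 ± 0.13, then Ptpn22 at -0.38 ± 0.06 and Ptprc at -0.34 ± 0.09. The smallest differences were those of Lat (-0.19 ± 0.04) and Cd5 (-0.19 ± 0.10). The median of all genes was at -0.08 in this comparison. With cells thinned to 1000 UMIs before summing, 7 of 9 genes were lower in 4 of 4 libraries. Lat was then at 0.041 in KO1 and Lcp2 at 0.04 in WT2. Lck was at -0.542, -0.565, -0.457 and -0.483 in WT1, WT2, KO1 and KO2. Cycling cells also had more UMIs, with medians of 5202.5, 2784, 5583.5 and 4116 per cell, against 3494, 1951, 3627 and 2892 in the unnamed clusters. The part of this in the lower CPM was not tested. CPM is a share of all UMIs, and the lower share of Lck was not a lower number per cell. Lck had 4319, 3680, 3058 and 3705 UMIs in 808, 1050, 526 and 692 cycling cells (WT1, WT2, KO1 and KO2). It had 12561, 14471, 12733 and 15374 UMIs in 2785, 4676, 2651 and 3550 unnamed cells. Per cell, Lck thus had more UMIs in cycling cells in each library.

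In the Tcf7/Ccr7 clusters 7 of 9 genes were lower in 4 of 4 libraries and 0 higher, where 28% of genes were lower and 12.8% higher. Zap70 was at 194.8, 203.7, 212.7 and 170.4 CPM in WT1, WT2, KO1 and KO2, against 277.1, 269.8, 263.8 and 244.8 in the unnamed clusters. The 2 sets did not overlap, and the log2 difference was -0.44 ± 0.10. Ptpn22 (-0.46 ± 0.26), Lat (-0.30 ± 0.08), Lck (-0.30 ± 0.04) and Ptprc (-0.29 ± 0.11) were also lower. Ptpn6 (-0.21 ± 0.15) and Cd5 (-0.07 ± 0.11) were lower by less, and Cd5 lay within 0.03 of 0 in 3 libraries. With CPM not scaled by TMM the count was 5 lower, since Cd5 was then higher in 3 libraries and Ptpn6 in KO1. Fyn and Lcp2 were higher in 2 libraries and lower in the other 2. With cells thinned to 1000 UMIs 6 genes were lower in 4 of 4 libraries, and Lcp2 was higher, at 109.7, 72.9, 101.9 and 122.5 CPM against 102.4, 63.4, 101.9 and 103.5, so that in KO1 the 2 values were equal when rounded. The median of all genes was at -0.10. With markers at 1.5-fold, which moves the 724 cells of KO1 out of the reference and into this class, the count was also 7 of 9 lower and 0 higher, but the difference in KO1 went from -0.29 to -0.04 for Lck and from -0.81 to -0.06 for Ptpn22.

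In the terminal effector-like clusters, Lck, Fyn, Ptprc and Ptpn6 were higher in 4 of 4 libraries and Lat and Lcp2 lower, against 13.2% of genes higher and 20.2% lower. The 2 of 9 that were lower are thus near the share over all genes. Fyn was at 311.1, 269.1, 298.4 and 292.8 CPM against 237.8, 231.4, 266.2 and 229.3, a log2 difference of 0.28 ± 0.11, with every terminal effector-like value above every unnamed one. Ptpn6 was higher by 0.26 ± 0.06, Lck by 0.17 ± 0.04 and Ptprc by 0.12 ± 0.05. Of the adaptors, Lcp2 was at 78.7, 60.6, 94.8 and 85.7 CPM against 99.2, 71.2, 106.1 and 104.7, a log2 difference of -0.25 ± 0.07. Lat was at -0.20 ± 0.13. With thinned cells, 3 genes were higher and 1 lower in 4 of 4 libraries, as Ptprc and Lcp2 no longer had a common sign. Zap70, Ptpn22 and Cd5 had no common sign.

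In the interferon clusters, Lat, Fyn and Ptpn6 were higher in 4 of 4 libraries and 0 genes lower, where 10.4% of genes were higher and 16.9% lower. Ptpn6 was at 269.4, 282.8, 285.3 and 285.2 CPM against 238.6, 263.6, 232.5 and 259.0, a log2 difference of 0.18 ± 0.08. Fyn was higher by 0.13 ± 0.05 and Lat by 0.12 ± 0.09. These were small, and at a clustering resolution of 0.4 or with thinned cells only 1 of 9 genes was higher in 4 of 4 libraries. With thinned cells, 2 of 9 were lower, and with CPM not scaled by TMM 2 were higher, since Lat was at -0.01 in WT2.

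**Figure D4:**
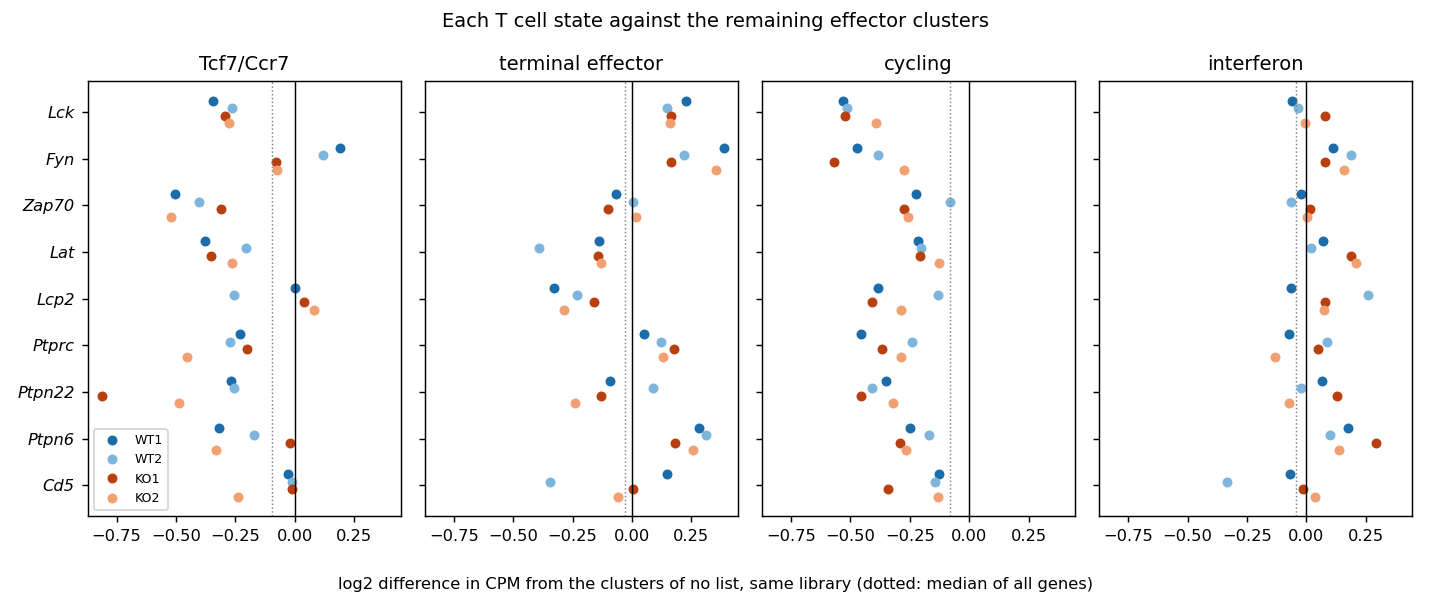
Log2 difference in CPM of each gene between a T cell state and the unnamed clusters of the same library, with 1 point per library. In the cycling panel all points lie left of 0, and in the terminal effector panel the points of Lck, Fyn, Ptprc and Ptpn6 lie right of 0 and those of Lat and Lcp2 left of it; the dotted line is the median of all genes.

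Across the 5 states the mean level changed least for Cd5, 1.14-fold between its highest and its lowest state, and most for Fyn (1.63-fold) and Lck (1.58-fold). For Lck the order was terminal effector-like (1530 ± 64.9 CPM, SD, n = 4), unnamed (1357 ± 76.6), interferon (1352 ± 76.4), Tcf7/Ccr7 (1107 ± 85.7) and cycling (967.7 ± 79.5). Each step held in 4 of 4 libraries except that between unnamed and interferon, which held in 3. For Fyn the order was terminal effector-like (292.9 ± 17.6 CPM), interferon (264.3 ± 11.4), Tcf7/Ccr7 (247.9 ± 22.6), unnamed (241.2 ± 17.1) and cycling (179.2 ± 7.66). The first and the last step held in 4 of 4 libraries, and the neighbours between them kept their order in 2 or 3 libraries. Zap70 had its lowest level in Tcf7/Ccr7 cells (195.4 ± 18.2 CPM), below cycling cells (228.4 ± 21.9) in 4 of 4 libraries, whereas the upper 3 states, at 257.2 to 263.9 CPM, were within 1 SD of each other. With markers at 1.5-fold the order of Tcf7/Ccr7 and cycling cells turned in KO1, at 232.5 against 217.6 CPM.

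Over the 20 sums (4 libraries by 5 states), Lck and Ptpn6 ran most closely together of the 36 pairs of these genes (Pearson r = 0.904), and Lcp2 and Ptprc least (r = -0.385). The sums share libraries, depth and cells, so that these are descriptions. Of 4998 genes with a mean of at least 20 CPM, the profiles most like that of Lck were those of Tbc1d10c (r = 0.947), Syf2 (0.938) and Nrbp1 (0.936). For Zap70 they were Gimap7 (0.957), Ech1 (0.953) and Atp5c1 (0.921). Fyn was most like Gltscr2 (0.931), Use1 (0.919) and Eif3f (0.911), Lat most like Arf5 (0.884), Epsti1 (0.826) and Pstpip1 (0.815), and Lcp2 most like Gm10036 (0.878), Ucp2 (0.877) and Rpl29 (0.875). Ptprc was nearest to H2-Q7 (0.916), Zkscan14 (0.915) and Psap (0.914), Ptpn22 to Stk16 (0.910), Tceb3 (0.897) and Ipo11 (0.893), and Ptpn6 to Arhgap25 (0.912), Ppp1r12a (0.899) and Sp140 (0.896). Cd5 had no close partner, with Klf7 (0.744), Kdelr1 (0.720) and Kdm4a (0.703) the nearest.

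Within each state the genotypes were tested again. No gene of the 9 was called by edgeR in any state. The share of all genes called was 0.736% in Tcf7/Ccr7, 0.613% in terminal effector-like, 0.26% in cycling, 0.439% in interferon and 0.223% in the unnamed clusters. With the block the shares were 2.3%, 1.37%, 1.51%, 2.21% and 3.19%, and still none of the 9 was called. Lcp2 was the only one of the 9 with an unadjusted p under 0.05 in the fits without a block, in 2 of 5 states. Its log2 fold change was above 0 in 5 of 5 states, at 0.48 in Tcf7/Ccr7 (edgeR, adjusted p = 0.608), 0.40 in terminal effector-like (0.350), 0.26 in cycling, 0.31 in interferon and 0.31 in the unnamed clusters. In the terminal effector-like clusters both KO libraries (94.8 and 85.7 CPM) were above both WT libraries (78.7 and 60.6 CPM). Lat was also above 0 in 5 of 5 states (0.06 to 0.21), and Zap70 (-0.18 to -0.04) and Ptprc (-0.26 to -0.14) below 0 in 5 of 5. The states of a library come from 1 animal and are not independent of each other.

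Whether a genotype difference changed with the state was tested by the state by genotype terms. Of 9654 genes, 0.984% were called by edgeR, and 0 of the 9. Ptpn22 was the only one of the 9 with an unadjusted p under 0.05 (0.043, adjusted p = 0.546, edgeR). In Tcf7/Ccr7 cells it was at 234.1 CPM (WT1), 226.9 (WT2), 155.4 (KO1) and 201.6 (KO2), with both KO libraries lower. With markers at 1.5-fold KO1 was at 257.8 CPM, above both WT libraries (233.7 and 226.5). In the unnamed clusters it was at 282.3, 271.3, 273.5 and 283.3 CPM, with the genotypes overlapping. The lowest value came from KO1, whose Tcf7/Ccr7 cluster has 132 cells and Cd4 among its leading genes.

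The genes around the 9 were taken from fixed lists, in the same all-cell fit. These lists were chosen with earlier results of these data known. Of all genes tested, 51.5% had a log2 fold change above 0 and 15.6% an unadjusted p under 0.05 without the block (edgeR). By edgeR, 0.363% were called without the block and 9.65% with it. Of 10 receptor and coreceptor chains, 1 was called. Cd3e, 1 of the signalling chains of the receptor complex, was at 489.5 CPM (WT1), 399.5 (WT2), 818.9 (KO1) and 878.4 (KO2), with both KO libraries above both WT libraries. It rose by 0.94 ± 0.13 on the log2 scale (SE, edgeR, adjusted p = 0.0408). It did not pass without WT2 (0.79; edgeR, adjusted p = 0.157) or without KO2 (0.89; edgeR, adjusted p = 0.0665). Cd3d, a partner chain, was at 1495, 1412, 1453 and 1289 CPM, and its log2 fold change was -0.08 (-0.37 to 0.21). The coreceptor chain Cd8b1 had a log2 fold change of 0.15 (-0.16 to 0.46). When 1 library was left out, Cd3d ran from -0.178 (without KO1) to 0.007 (without KO2). Cd8b1 then ran from 0.043 (without WT2) to 0.255 (without WT1). Of the 10 chains 2 (20%) had a log2 fold change above 0, and the median was -0.09, against 0.01 over all genes tested.

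Of 14 other kinases and enzymes that pass the signal on, 13 (92.9%) had a log2 fold change above 0. By edgeR, 0 were called without the block, 1 had an unadjusted p under 0.05, and the median log2 fold change was 0.14. With the block Plcg1, phospholipase C gamma 1, rose by 0.45 (edgeR, adjusted p = 0.0144), from 21.1 and 20.9 CPM in WT1 and WT2 to 26.3 and 31.1 in KO1 and KO2. Prkcq, the most abundant of this list, had a log2 fold change of 0.10 (-0.10 to 0.30) and did not pass. Of 13 other adaptors tested (Trat1 was too low), 6 had a log2 fold change above 0, 0 were called without the block, and 3 had an unadjusted p under 0.05. With the block Nck2 rose by 0.88 (adjusted p = 0.0422) and Was and Tespa1 fell by 0.53 and 0.51 on the log2 scale (edgeR, adjusted p = 0.000424 and 0.00523). Tespa1 was at -0.50 in the fit without a block and at -0.29 without KO2. Nck2 was low, at 1.70 to 3.58 CPM. Was, which links the receptor to actin, was at 85.01, 74.3, 60.2 and 49.8 CPM in WT1, WT2, KO1 and KO2, without overlap.

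Of 20 other inhibitors, 13 had a log2 fold change above 0, 0 were called without the block and 5 had an unadjusted p under 0.05. With the block 2 of 20 were called, which is near the share over all genes. Of these, the phosphatase gene Ptpn7 rose with the block by 0.25 and the adaptor gene Lax1 by 0.33 (edgeR, adjusted p = 0.0439 and 0.0200). Lax1 was at 0.33 in the fit without a block and at 0.20 without WT2. Cd6, a relative of CD5, was at 265.6, 239.3, 238.2 and 248.8 CPM (log2 fold change -0.05), and Dok2 had a log2 fold change of -0.08. Both changed sign when 1 library was left out. Cd6 ran from -0.133 (without WT2) to 0.025 (without WT1), and Dok2 from -0.190 (without WT1) to 0.034 (without WT2). In the calcium and NFAT branch all 8 genes had a log2 fold change above 0, against 51.5% of all genes, with a median of 0.23. Without the block 0 of 8 were called and 4 had an unadjusted p under 0.05. With the block 3 rose, namely the calcineurin subunit genes Ppp3ca (0.32) and Ppp3r1 (0.76) and Nfatc1 (0.40; edgeR, adjusted p = 0.00922, 0.0105 and 0.0103). Ppp3r1 was at 37.2 CPM (WT1), 22.1 (WT2), 44.1 (KO1) and 54.2 (KO2), with WT2 lowest and a log2 difference of 0.25 in chimera 1 and 1.29 in chimera 2. In the fit without a block it was 0.73, but 0.40 without WT2 and 1.15 without WT1. Ppp3ca was at 93.0 and 95.6 CPM in WT1 and WT2 and at 114.7 and 120.3 in KO1 and KO2.

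Of 15 targets of receptor engagement that were tested, 7 had a log2 fold change above 0. Without the block 2 fell and 0 rose (13.3% called, against 0.363% of all genes). With the block 3 fell and 1 rose (26.7%, against 9.65%). Jun, a subunit of AP-1, was at 33.0 CPM (WT1), 39.8 (WT2), 14.96 (KO1) and 14.3 (KO2). It fell by 1.32 on the log2 scale (edgeR, adjusted p = 0.0158), and by 1.57 in the T cell states alone (edgeR, adjusted p = 0.0342), with both KO libraries under both WT libraries. Cd69, an early activation marker, was at 42.3, 43.1, 24.6 and 24.3 CPM and fell by 0.80 (edgeR, adjusted p = 0.0269). With the block Tnfrsf9, the gene of 4-1BB, also fell, by 0.75 (edgeR, adjusted p = 8.66e-05), and the phosphatase gene Dusp2 rose by 0.40 (edgeR, adjusted p = 0.00253). In the fit without a block, Tnfrsf9 went from -0.74 to -0.48 without WT2, and Dusp2 from 0.40 to 0.21 without WT1, 0.25 without KO2 and 0.60 without WT2. The list median was -0.09, and Egr3, Fosb, Spry1 and Spry2 were too low to be tested.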

How the data were processed

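The authors prepared 3′ libraries (10x Genomics, version 2) and counted reads with Cell Ranger 2.2.0 after bcl2fastq 2.17, per the labels. The deposited values are UMI counts of every barcode of the kit, neither normalized nor filtered (build mm10, per the labels), with 20358780 to 22922219 UMIs per library. A barcode was kept as a cell from 500 genes upwards and up to 10% of mitochondrial UMIs. Each library was clustered with Seurat 5.3.0 (2000 variable genes, 15 principal components, 20 neighbours, resolution 0.8). A cluster took the name of a marker list if at least 3 of its genes were 2-fold above the other cells and seen in 10% or more of its own cells, with at least 1 among its 10 leading genes. The naming rule was settled with the clusters already in view, as were the promoter motifs and the windows shown. Clusters smaller than 1% of their library were dropped, and no doublet caller was run. In each KO library 1 cluster had mixed markers of B and myeloid cells and was not named, and myeloid-like clusters were not compared.

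Sums of UMIs, for whole libraries and for each state, went into the quasi-likelihood test of edgeR 4.0.16 (filterByExpr, TMM, Benjamini-Hochberg adjustment over all genes tested, threshold 0.05), after a test on simulated data. DESeq2 1.42.0 was an alternative, and for the states CPM without TMM factors. The numbers pair the libraries, since WT and KO cells of a number come from the same chimera per the labels. Across 6862 genes of at least 10 CPM, the difference between chimeras in WT (WT1 minus WT2) and the same in KO had a Pearson r of 0.163 (log2 scale). Intervals of fold changes were derived from the p-value and the degrees of freedom of each fit. Shares were compared in cells thinned to 1000 UMIs, which left out 25, 223, 15 and 19 cells of WT1, WT2, KO1 and KO2. Their exact 95% intervals cover counting error only. CPM counts transcript ends and was not divided by length. The 9 genes, the marker lists and the pathway lists were chosen with earlier results of these data known. From each pathway list, up to 3 rises and 3 falls of the largest size were named among genes called with or without the block with the same sign in each chimera, and, where fewer than 3 were called, the 2 of highest mean CPM. The values of 1 gene named by this rule are not reported here. The 3 genes most like each of the 9 were taken by Pearson correlation of log2(CPM + 1). Positions and overlaps are from GENCODE vM21 and promoters from RefSeq, both GRCm38.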

Additional observations from a re-analysis of the deposited data

How the results depend on the processing

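In the Tcf7/Ccr7 clusters of WT2 and of KO1, Lcp2 rested on 59 UMIs each. The count of the 9 genes called between genotypes was 0 under each alternative except the replicate block, where it was 1 (Lcp2), also in the T cell states alone (1, an alternative added after the data had been seen). The replicate block changed no other call of the 9, within states included. The number of all genes called was 42. It became 1116 with the replicate block, 195 with DESeq2 and 1306 in the T cell states with the block, and ranged from 40 to 228 when 1 library was left out (228 without WT1, 176 without KO1). The cause was not tested. Log2 fold changes near 0 changed sign. Leaving out 1 library gave -0.064 to 0.118 for Lck, -0.029 to 0.028 for Ptpn22, -0.078 to 0.107 for Ptpn6 and -0.024 to 0.043 for Cd5. Ptpn22 was at -0.004 with RLE size factors and -0.009 with DESeq2, Cd5 at -0.002 with DESeq2, and Ptpn6 at -8.2e-06 with at most 5% mitochondrial UMIs. Of 117 such values over 13 alternatives, 104 kept their sign and their side of the threshold, 11 changed sign and 2 (Lcp2) passed. Of the counts over states, thinning gave 1 gene higher in Tcf7/Ccr7, 1 lower in terminal effector-like, and 1 higher and 2 lower in interferon clusters. CPM without TMM factors (added after the data had been seen) gave 5 lower in Tcf7/Ccr7, 3 lower in terminal effector-like and 2 higher in interferon clusters. A resolution of 0.4 gave 1 gene higher in interferon clusters. When 1 library was left out, 0 to 1 genes were lower there. KO1 had no Tcf7/Ccr7 cluster at a resolution of 0.4, so that comparison was not made in 4 libraries. Without thinning, shares of cells with a UMI were 95.6% for Lck, 53.3% for Zap70, 86.5% for Lat, 25.1% for Lcp2, 51.3% for Fyn, 81.9% for Ptprc, 54.2% for Ptpn22, 48.5% for Ptpn6 and 33.5% for Cd5.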
